A study of Mus musculus with 3 samples.

Results

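The protein kinase C (PKC) genes other than *Prkcd* were followed through single-cell RNA-seq data of immune and brain cells from tumor-bearing mouse brain. The rule for members uses the gene symbol alone and no measured value, and it gives 7 of the 31053 genes in the files: *Prkca* (PKC alpha), *Prkcb* (beta), *Prkce* (epsilon), *Prkch* (eta), *Prkcq* (theta), *Prkcz* (zeta) and *Prkci* (iota). The mice were wild-type C57BL/6 females, 6 to 8 weeks old when sourced, that had received mouse brain tumor-initiating cells, the BT0309 line from an NPcis Trp53+/-/Nf1+/- mouse, in the right striatum. The vehicle control library (replicate 2) came from mice injected with saline, and niacin replicates 1 and 2 from mice given niacin intraperitoneally at 100 mg/kg each day from day 7. All mice carried the tumor, and tissue was taken at week 4. The labels give both 5 mice per library and 4 pooled tissues per sample, so each library is a pool and not an animal, and the tumor is a single line. Tissue came from a section around the injection site, and a Percoll gradient was used against myelin debris and to enrich leukocytes. Live cells were then sorted without a lineage marker.

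PKC isoforms are serine/threonine kinases grouped by what activates them. The classical isoforms alpha and beta need calcium and the membrane lipid diacylglycerol, which phospholipase C makes. The isoforms epsilon, eta and theta, like delta, need diacylglycerol but not calcium, and the atypical isoforms zeta and iota need neither and act with polarity proteins. PKC beta is known for signaling below the B cell receptor and PKC theta for signaling at the T cell synapse.

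*Prkca* lies on chromosome 11 (107933387 to 108343928, minus strand, GRCm38), *Prkcb* on chromosome 7 (122288751 to 122634402, plus), *Prkce* on chromosome 17 (86167785 to 86657919, plus), *Prkch* on chromosome 12 (73584796 to 73778185, plus) and *Prkcq* on chromosome 2 (11172108 to 11301222, plus). *Prkcz* lies on chromosome 4 (155260129 to 155361361, minus) and *Prkci* on chromosome 3 (30995747 to 31052959, plus). The files count molecules per gene, so no value below refers to a single transcript form.

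The promoter windows of *Prkca*, *Prkcb* and *Prkcq* are shown, the members with a listed window that also entered the tests between cell classes described below. Each window runs from 250 bases before to 50 bases after the RefSeq start in GRCm38.p6, on the strand of the gene, and 5 of the 7 members had an entry (not *Prkce* and *Prkch*). Capitals mark motif letters, which were searched on both strands. The motif that zinc finger factors of the Sp family read was spelled GGGCGG and is called the GC box. A motif of the myeloid and B cell factor PU.1 was spelled GAGGAA. The motif of the RUNX factors, which act in T cells and other blood cells, was spelled TGTGGT. The motif of the core promoter known as the TATA box was spelled TATAAA.
Prkca (chr11:108343839-108344138, minus strand): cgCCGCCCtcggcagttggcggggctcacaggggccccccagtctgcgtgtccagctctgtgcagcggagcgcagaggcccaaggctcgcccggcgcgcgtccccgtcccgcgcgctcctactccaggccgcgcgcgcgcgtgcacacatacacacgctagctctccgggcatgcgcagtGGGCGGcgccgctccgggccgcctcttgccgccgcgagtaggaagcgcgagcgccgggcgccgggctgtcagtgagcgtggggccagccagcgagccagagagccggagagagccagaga
Prkcb (chr7:122288875-122289174, plus strand): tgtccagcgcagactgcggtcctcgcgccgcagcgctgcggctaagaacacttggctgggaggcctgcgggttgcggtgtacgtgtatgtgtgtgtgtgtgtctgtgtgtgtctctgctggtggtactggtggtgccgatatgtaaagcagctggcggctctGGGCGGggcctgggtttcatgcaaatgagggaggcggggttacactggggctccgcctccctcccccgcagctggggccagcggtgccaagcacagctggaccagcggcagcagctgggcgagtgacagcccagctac
Prkcq (chr2:11172132-11172431, plus strand): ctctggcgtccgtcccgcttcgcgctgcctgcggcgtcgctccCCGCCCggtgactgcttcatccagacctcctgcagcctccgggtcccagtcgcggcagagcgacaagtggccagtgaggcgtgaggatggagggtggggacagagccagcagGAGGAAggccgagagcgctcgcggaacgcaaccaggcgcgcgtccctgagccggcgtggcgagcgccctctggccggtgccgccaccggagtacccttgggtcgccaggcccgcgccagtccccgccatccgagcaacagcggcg
Of these windows *Prkca* holds 2 GC boxes, *Prkcb* 1 GC box, and *Prkcq* 1 GC box and 1 PU.1-like match, and none holds the TATA box or the RUNX-like letters. Among 32544 windows of the same length, 35.9% hold the GC box, 28.1% the PU.1-like letters, 16.7% the RUNX-like letters and 13.6% the TATA box. Bases G and C make up 75.3% of the *Prkca* window, 65.3% of the *Prkcb* window and 73.0% of the *Prkcq* window, against a median of 53.0% over all windows. Matches of this kind are common and describe the letters only.

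The libraries hold 2270, 2145 and 2532 barcodes (vehicle control, niacin replicate 1 and niacin replicate 2, the order used for all values below), with 8301228 to 10359526 unique molecular identifiers (UMIs), each a captured RNA molecule. The libraries share barcodes: 924 barcode sequences occur in more than 1 library, 452 of them in all 3, and the deepest copy had a median of 11186 UMIs against 648 for the other copies and 2215 for unshared barcodes. Shared barcodes were therefore left out, which reduced the barcodes passing the quality filters from 5528 to 3478 cells (1090, 987 and 1401). Each cell was placed in a class by how many of 8 marker genes it had (at least 3, and at least 2 more than for any other class), and class names end in "-like". The classes tested were microglia-like (1833 cells), T cell-like (361), monocyte/macrophage-like (178), choroid plexus-like (172), neutrophil-like (122) and B cell-like (90). At the limit of the gate lay 43.3% of the monocyte/macrophage-like cells but 4.07% to 17.5% of the cells in the other 5 classes. A median cell had 4 to 7 markers of its own class and 2 or 3 markers of all 13 other classes together. No class was given to 569 cells (16.4%), which had a median of 1164 UMIs against 3958 for cells with a class. Natural killer (NK) cell-like cells (63, 3 and 8 per library) and basophil/mast cell-like cells (4, 27 and 33) were too few in 1 library to be tested.

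Levels are given as UMIs of a gene per 1000000 UMIs of the class in a library (CPM), a scale for comparing one gene between classes and not one gene with another. In bulk sums of this kind, fewer cells making a transcript and less of it per cell cannot be told apart. The sums entered a quasi-likelihood fit in edgeR that held the library as a block, and p-values were adjusted by the Benjamini-Hochberg method over 6050 genes. The block takes up differences between libraries that the classes share. The p-values therefore rest on how far the differences between classes vary over these 3 libraries. Because the replicates are pools of mice, the spread between animals is not measured. *Prkcz* and *Prkci* did not pass the filter on low counts, so 5 of 7 members entered these tests.

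**Figure D1:**
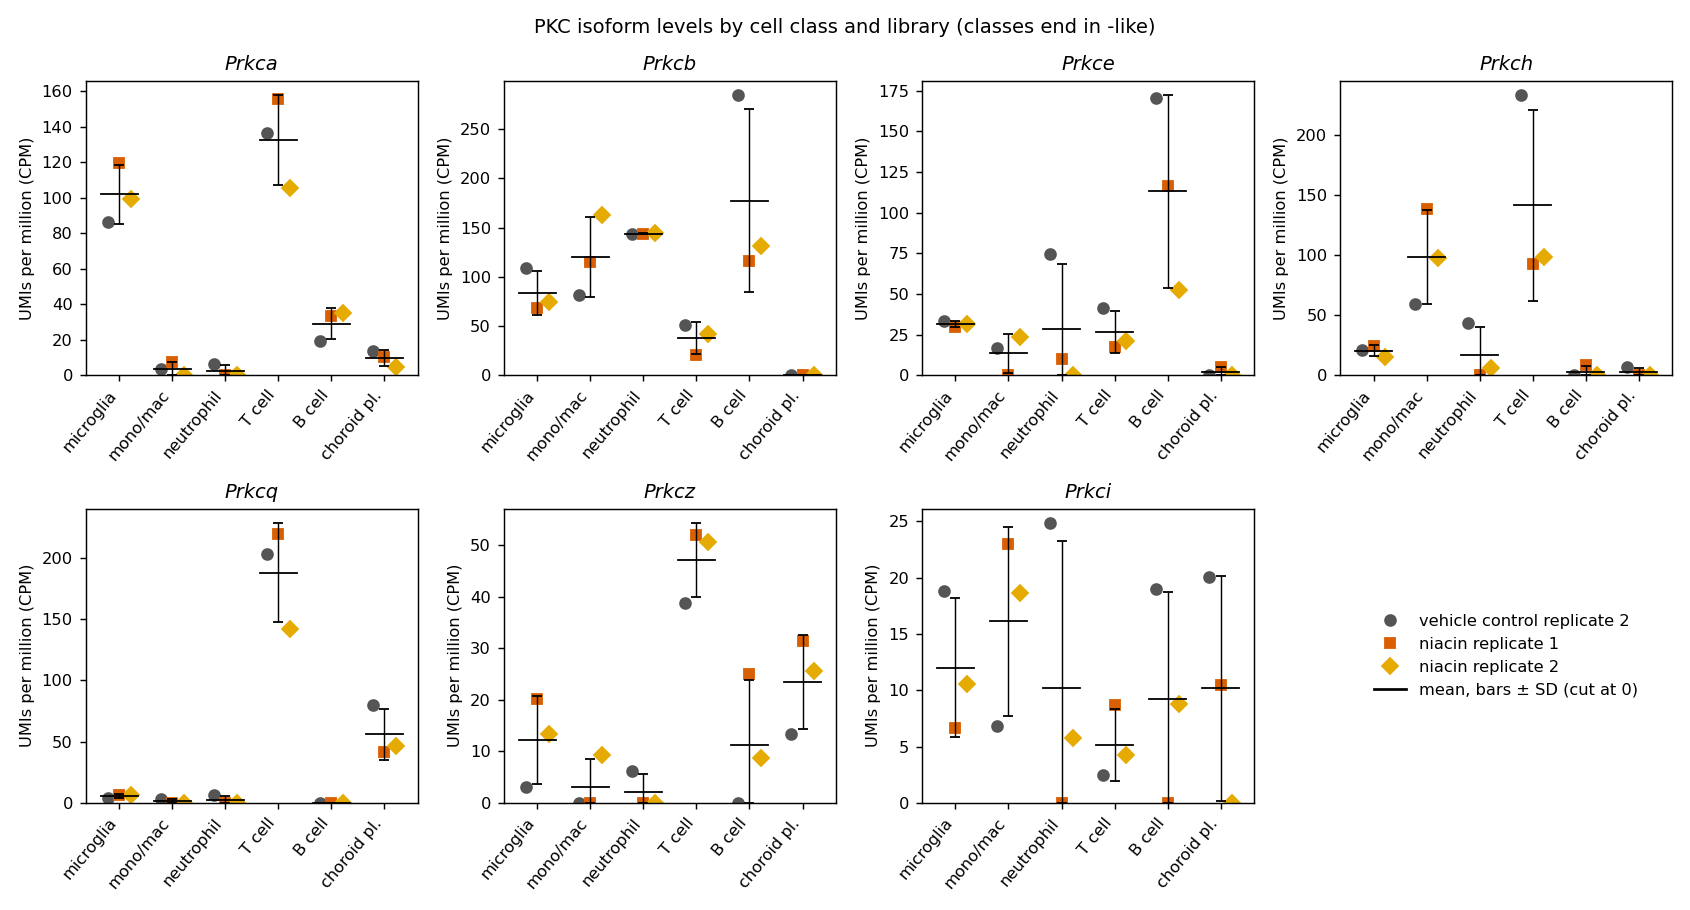
CPM of each PKC isoform (1 panel per gene, y axes differ) in 6 cell classes (x axis). Points are the 3 libraries and lines with bars give the mean ± SD. *Prkca* is high in microglia-like and T cell-like cells, *Prkcq* in T cell-like and choroid plexus-like cells, and *Prkcb* was found in every class but the choroid plexus-like one.

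*Prkca*, a classical isoform, divided the resident from the infiltrating myeloid cells. In microglia-like cells its level was 86.6, 119.9 and 99.5 CPM (102 ± 16.8, SD, n = 3), from 143, 269 and 378 UMIs. In monocyte/macrophage-like cells it was 3.40, 7.66 and 0 CPM, from 3 UMIs in all. The ranges of the classes did not overlap, the log2 fold change was 4.85 (SE 0.51) and the edgeR adjusted p was 9.2e-09. The ratio of the pooled levels was 32.0, with a 95% counting interval of 10.9 to 155. Over 16 alternatives the log2 fold change ran from 2.85 to 6.03, and every adjusted p was at or below 6.8e-05.

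After each cell was thinned to 2000 UMIs, 14.4%, 21.6% and 18.9% of microglia-like cells had a *Prkca* UMI. Of monocyte/macrophage-like cells 1.19%, 0% and 0% had one (0 of 21 and 0 of 31 cells, which allow shares of up to 14.3% and 9.68%). Thinning left out 120, 165 and 280 shallower microglia-like cells and 31, 7 and 4 monocyte/macrophage-like cells. At full depth 28.9%, 34.3% and 32.5% of the microglia-like cells had a UMI, against 1.74%, 3.57% and 0% of the other class, with median depths of 3699 and 5286.5 UMIs.

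Microglia-like cells fell mainly into 4 graph clusters, found without the PKC genes, and *Prkca* was detected in all of them. Cluster 9, led by *P2ry12*, *Gpr34* and *Cst3*, held 988 of the microglia-like cells and had 91.1, 119.9 and 97.8 CPM of *Prkca*. Cluster 10, led by the chemokine gene *Ccl12* and the complement gene *C4b*, had 78.03, 73.1 and 53.4 CPM. Cluster 4, led by *Igha* and *Ighg2c*, held 378 of the microglia-like cells, and its cells had a median of 1182 UMIs. It had 92.2, 109.3 and 109.6 CPM, from 11, 32 and 30 UMIs. Cluster 6, whose cells had a median of 1572 UMIs, had 156, 135 and 142 CPM, from 3, 40 and 33 UMIs. The 10 leading genes of clusters 4, 6 and 10 include no listed microglial marker. In each library cluster 10 was below and cluster 6 above cluster 9, differences described here without a test, and the niacin values of cluster 10 rest on 2 and 5 UMIs.

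*Prkch*, a calcium-independent isoform, had the opposite order in these myeloid classes. Its level was 59.5, 138 and 97.6 CPM in monocyte/macrophage-like cells and 21.2, 24.5 and 15.3 CPM in microglia-like cells. The lowest macrophage value exceeded the highest microglial one, the log2 fold change of microglia-like over monocyte/macrophage-like cells was -2.07 (SE 0.40), and the edgeR adjusted p was 0.00012. *Prkcd*, the delta isoform, served as the reference and was at 973, 574 and 637 CPM in the monocyte/macrophage-like and at 421, 269 and 245 CPM in the microglia-like class.

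The other members did not pass this test. *Prkcb* gave a log2 fold change of -0.39 (SE 0.30, edgeR adjusted p = 0.31), *Prkce* 1.20 (SE 0.56, adjusted p = 0.087) and *Prkcq* 1.38 (SE 0.89, adjusted p = 0.22, from 46 UMIs). Without the vehicle control library *Prkcb* was called lower in microglia-like cells (-0.86, edgeR adjusted p = 0.0098). In all, 2 of 5 members tested were called, and 43.9% of all genes tested were called in this comparison, so the count of members is near the background.

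**Figure D2:**
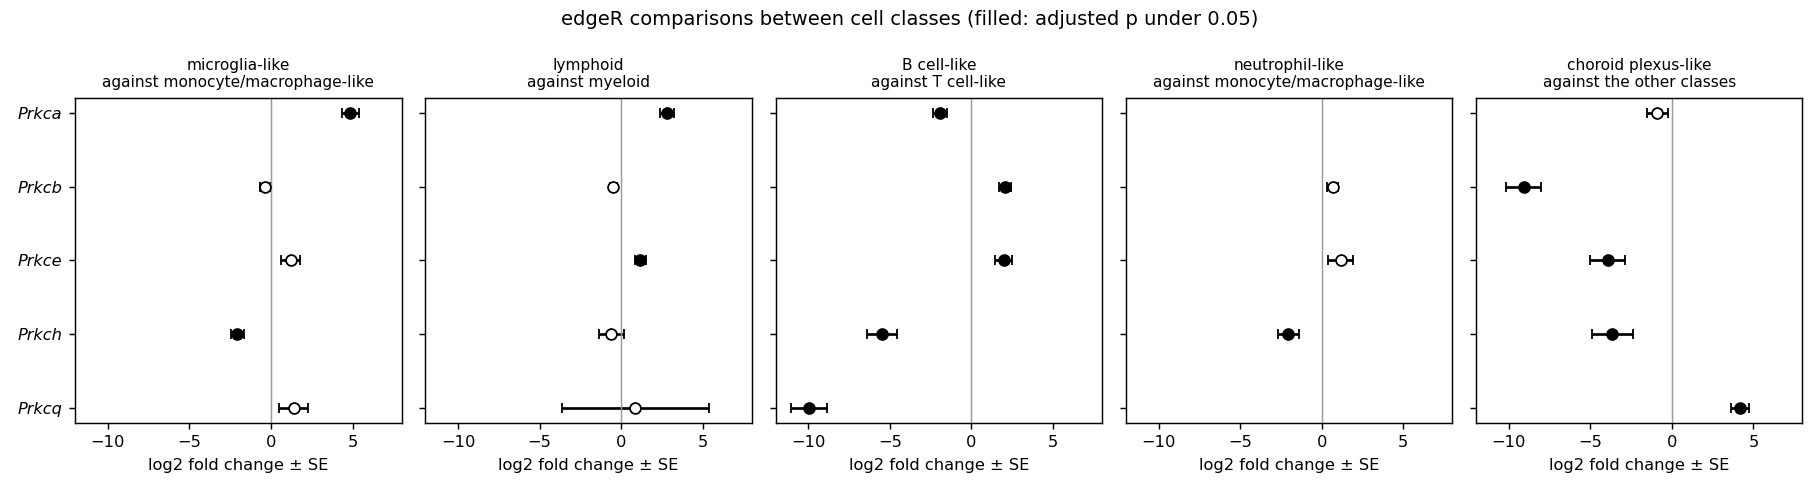
Log2 fold change ± SE (x axis, edgeR) of 5 PKC isoforms (y axis) in 5 comparisons between cell classes. Filled points have an adjusted p under 0.05, and members with fewer than 20 UMIs over the classes compared are not drawn. *Prkca* stands at 4.85 in microglia-like against monocyte/macrophage-like cells and *Prkcq* at 4.17 in choroid plexus-like cells against the others. The *Prkcq* and *Prkcb* points near the left edge have a class with 0 UMIs, so their size depends on the prior count, as does *Prkcq* in the comparisons that average over B cell-like cells.

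T cell-like and B cell-like cells differed in every member tested. *Prkcq*, the theta isoform of T cell receptor signaling, was at 203, 219 and 142 CPM in T cell-like cells and had no UMI in the 90 B cell-like cells. The absence is bounded by 402132 UMIs, where 3 counts would be 7.46 CPM, so *Prkcq* was at least 24.5-fold higher in T cell-like cells. *Prkch* was at 233, 92.3 and 98.4 CPM in T cell-like cells, with 288 UMIs, and had 1 UMI in B cell-like cells (ratio 62.4, 95% counting interval 11.1 to 2472). The edgeR adjusted p was 1.8e-07 for *Prkcq* and 4.2e-05 for *Prkch*.

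*Prkca* was lower in B cell-like cells as well, at 19.0, 33.2 and 34.9 CPM against 136, 156 and 105 CPM in T cell-like cells. The values did not overlap, with a log2 fold change of B over T of -1.93 (SE 0.40, edgeR adjusted p = 0.0009). *Prkcb*, the isoform of B cell receptor signaling, had the reverse order, at 285, 116 and 131 CPM in B cell-like cells and 51.3, 20.2 and 42.2 CPM in T cell-like cells. Its log2 fold change was 2.05 (SE 0.37, edgeR adjusted p = 0.00017).

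*Prkce*, also calcium-independent, was in B cell-like cells at 171, 116 and 52.4 CPM, against 41.3, 17.3 and 21.1 CPM in T cell-like cells. The log2 fold change was 1.97 (SE 0.52, edgeR adjusted p = 0.0087), and the call was lost without niacin replicate 1 (1.52, adjusted p = 0.16). The vehicle control library holds 16 B cell-like cells, so its values for *Prkcb* and *Prkce* rest on 15 and 9 UMIs. All 5 members tested were called, 3 lower and 2 higher in B cell-like cells, where 12.5% of all genes tested were called.

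In the comparison of lymphoid (T cell-like and B cell-like) with myeloid (microglia-, monocyte/macrophage- and neutrophil-like) classes, *Prkca* and *Prkce* were called higher. *Prkca* gave a log2 fold change of 2.79 (SE 0.43, edgeR adjusted p = 5.9e-06) and *Prkce* 1.18 (SE 0.36, adjusted p = 0.009). On the CPM scale the difference in *Prkca* was smaller, with means of 80.8 in lymphoid and 35.9 in myeloid classes. The fitted value averages the classes on a log scale, and *Prkca* had 3 UMIs in monocyte/macrophage-like and 1 in neutrophil-like cells. *Prkce* averaged 113 CPM in B cell-like but 26.6 CPM in T cell-like cells. The means were 31.4 CPM in microglia-like, 28.3 in neutrophil-like and 13.4 in monocyte/macrophage-like cells. The T cell-like range overlapped that of each of these myeloid classes, so the call does not describe both lymphoid classes. The *Prkce* call was lost without niacin replicate 1 (0.92, edgeR adjusted p = 0.087). *Prkca* was nevertheless high in microglia-like cells, whose range overlapped that of T cell-like cells (86.6 to 119.9 against 105 to 156 CPM). The comparison averages over classes in which members move in opposite directions. For *Prkcq*, high in T cell-like and at 0 in B cell-like cells, the fit gave 0.86 with an SE of 4.52, and was not called (edgeR adjusted p = 0.93), and DESeq2 called it higher (2.39, adjusted p = 0.0077). *Prkch* was not called (-0.62, edgeR adjusted p = 0.56), and its mean CPM ran the other way, at 72.0 in lymphoid and 45.0 in myeloid classes, with lymphoid classes higher in 2 of 3 libraries. *Prkcb* was not called either (-0.48), but was called lower without the vehicle control library (-0.77, edgeR adjusted p = 0.0024) and with all barcodes kept (-0.60, adjusted p = 0.048). Of 5 members tested 2 were called, and 44.8% of all genes tested.

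Neutrophil-like cells carried *Prkcb* at 143, 143 and 144 CPM, from 23, 14 and 25 UMIs. The 8 neutrophil markers summed to 49223, 156200 and 218543 CPM in this class, so the CPM of other genes is not on an even scale between its libraries. Monocyte/macrophage-like cells had *Prkcb* at 81.5, 115 and 163 CPM, so the ranges overlapped, and the log2 fold change of 0.67 (SE 0.35) had an edgeR adjusted p of 0.17. It was called when all barcodes were kept (1.11, edgeR adjusted p = 0.019) or the deepest copies of shared ones (1.07, adjusted p = 0.029). *Prkch* was called lower in neutrophil-like cells (-2.04, SE 0.64, edgeR adjusted p = 0.019), where it had 7, 0 and 1 UMIs. The call was lost without niacin replicate 1 (-1.45, edgeR adjusted p = 0.17) and without niacin replicate 2 (-1.62, adjusted p = 0.17). *Prkce* was not called (1.16, SE 0.76), with 12 of its 13 neutrophil UMIs in the vehicle control library. *Prkca* and *Prkcq* had 4 and 3 UMIs in both classes together and are not described further. The share of all genes called was 26.4%, against 1 of the 5 members tested.

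Choroid plexus-like cells, the epithelium that makes cerebrospinal fluid, carried *Prkcq* at 80.1, 41.8 and 46.5 CPM, from 12, 8 and 20 UMIs. Against the mean of the other 5 classes the log2 fold change was 4.17 (SE 0.52, edgeR adjusted p = 1.5e-07). That value averages the classes on a log scale and depends on the prior count, since the comparator includes B cell-like cells at 0 and monocyte/macrophage-like and neutrophil-like cells with 1 or 2 UMIs. On the CPM scale the mean was 56.2 in choroid plexus-like cells and 39.3 over the other 5 classes, and the former was higher in 2 of 3 libraries. With microglia-like cells alone as comparator (a choice made once the data had been seen) *Prkcq* was called too (3.72), and over all 15 alternatives its log2 fold change ran from 3.56 to 5.54. The pooled level was 9.07 times that in microglia-like cells (95% counting interval 5.76 to 14.3). It was lower than in T cell-like cells, which had 3.52 times as much (2.53 to 5.01).

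T cell marker transcripts in these cells were few, which is in part fixed by the gate, since it sets the classes by these markers. Of the 8 T cell markers 5 had no UMI in choroid plexus-like cells, and their sum was 20.03, 5.23 and 2.33 CPM against 4250, 6016 and 6494 CPM in T cell-like cells. *Cd3e* had 0 UMIs, and NK cell markers summed to 53.4, 0 and 0 CPM. Microglial markers summed to 146 to 214 CPM and neutrophil markers to 80.1 to 230.1 CPM in the class. The part of transcripts from other cells in the *Prkcq* values was not tested. After thinning to 2000 UMIs, 22.2%, 4.35% and 6.82% of choroid plexus-like cells had a *Prkcq* UMI (25.9%, 16.3% and 16.7% without thinning), against 0% of B cell-like cells in each library. The median depth was 3956 UMIs in choroid plexus-like and 4729 UMIs in B cell-like cells. With 0 of 9, 0 of 21 and 0 of 42 thinned B cell-like cells, shares of up to 33.3%, 14.3% and 7.14% are allowed. Each limit lies above the thinned choroid plexus-like share of the same library. The vehicle control share rests on 27 cells, and its interval of 8.62% to 42.3% overlaps those of the niacin libraries.

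The remaining isoforms tested were low or absent in the choroid plexus-like class. *Prkcb* had no UMI in any of the 172 cells or in 770845 UMIs of the class (3 counts would be 3.89 CPM), and was at least 20.5-fold higher in microglia-like and at least 37.7-fold higher in B cell-like cells. *Prkce* and *Prkch* had 1 UMI each, with log2 fold changes of -3.94 (edgeR adjusted p = 0.002) and -3.66 (adjusted p = 0.014). The *Prkch* call was lost without niacin replicate 1 (-2.59, edgeR adjusted p = 1) and without niacin replicate 2 (-3.10, adjusted p = 0.057). *Prkca* was not called (-0.90, edgeR adjusted p = 0.24) but was called lower against microglia-like cells alone (-3.09, edgeR adjusted p = 1.4e-06). In this comparison 62.5% of all genes tested were called, as were 4 of the 5 members tested.

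The atypical isoforms were sparse. *Prkcz* was at 38.8, 51.9 and 50.6 CPM in T cell-like cells (47.1 ± 7.23, SD, n = 3) and at 13.4, 31.4 and 25.6 CPM in choroid plexus-like cells, ranges that did not overlap. In microglia-like cells it was at 3.03, 20.1 and 13.4 CPM, overlapping the choroid plexus-like range. Fitted without the filter on low counts, *Prkcz* was called higher in lymphoid classes (2.41, edgeR adjusted p = 0.0025) and in choroid plexus-like cells (1.65, adjusted p = 0.0098), and lower in B cell-like than in T cell-like cells (-2.12, adjusted p = 0.022). The lymphoid value averages the classes on a log scale. B cell-like cells averaged 11.2 CPM (5 UMIs), within the microglia-like range. Monocyte/macrophage-like and neutrophil-like cells had 2 and 1 UMIs of *Prkcz*. *Prkci* was between 5.13 and 16.1 CPM on average in every class, with overlapping ranges between all neighbors in the order of levels, and was called in none of the 5 comparisons without the filter. Its 86 microglial UMIs make up 62.3% of the total for *Prkci*, which follows from the size of that class.

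**Figure D3:**
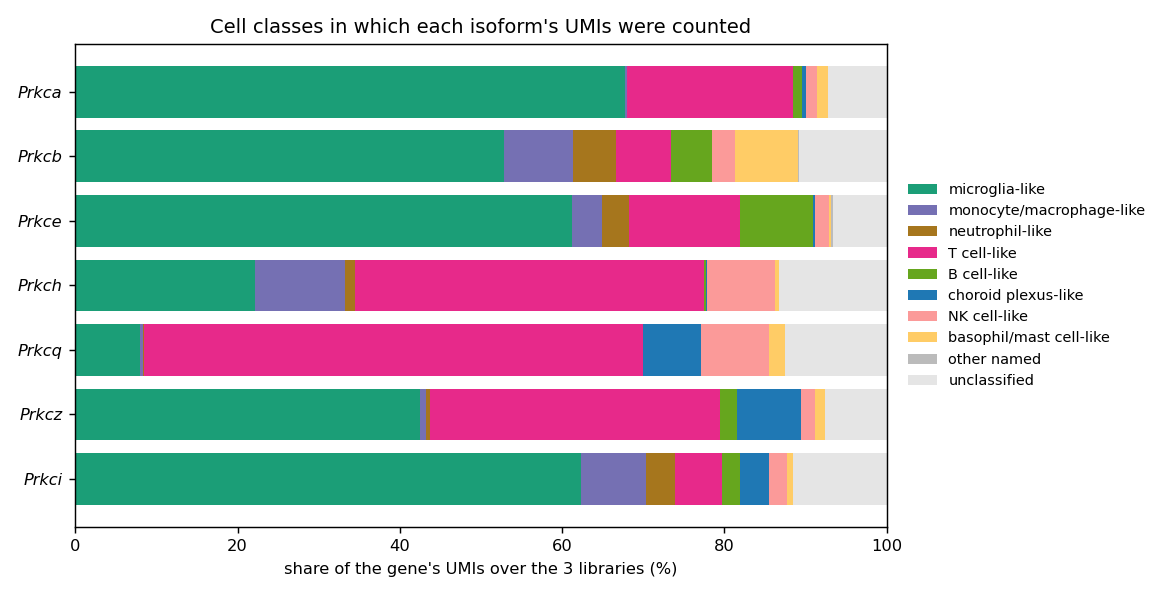
Share of each isoform's UMIs (x axis, %) counted in each cell class over the 3 libraries. Microglia-like cells, the most numerous class, hold 67.7% of *Prkca* and 7.97% of *Prkcq* UMIs, and T cell-like cells hold 61.4% of *Prkcq* and 43.1% of *Prkch* UMIs.

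In the order of levels, some neighboring classes did not overlap. For *Prkca* these were microglia-like over B cell-like and B cell-like over choroid plexus-like cells. For *Prkcb* they were microglia-like over T cell-like and T cell-like over choroid plexus-like cells, with neutrophil-, monocyte/macrophage- and microglia-like cells each overlapping the class above. *Prkce* separated only B cell-like from microglia-like cells, *Prkch* only monocyte/macrophage-like from microglia-like cells, and *Prkcq* T cell-like from choroid plexus-like and the latter from microglia-like cells. *Prkcz* separated T cell-like from choroid plexus-like cells.

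Untested classes held high levels of some members. Basophil/mast cell-like cells had *Prkcb* at 596, 378 and 367 CPM (9, 39 and 42 UMIs), above each value in the tested classes. The counting intervals of these values, 273 to 1132, 269 to 516 and 265 to 496, each include the highest B cell-like value of 285 CPM. In the 63 NK cell-like cells of the vehicle control library *Prkch* was at 323 CPM (239.8 to 426) and *Prkcq* at 258 CPM (185 to 352). In niacin replicate 2, with 8 such cells, *Prkch* was lower, at 88.1 CPM (28.6 to 206, 5 UMIs). *Prkcq* was lower there as well, at 70.5 CPM (19.2 to 181, 4 UMIs). *Prkcz* had 0, 2 and 2 UMIs in NK cell-like cells, and 3 counts in the vehicle control library would be 19.4 CPM.

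The 61 genes listed for the steps around PKC comprised enzymes that make or remove diacylglycerol, other diacylglycerol-binding proteins, maturing enzymes, substrates, partners and related kinases, and 33 of them were tested. Between microglia-like and monocyte/macrophage-like cells 7 were higher, 9 lower and 17 did not pass. *Rasgrp3*, a diacylglycerol-activated Ras exchange factor, reached 252 CPM in microglia-like cells against 1.70 CPM in the monocyte/macrophage-like class (log2 fold change 6.37, SE 0.49, edgeR adjusted p = 7.6e-11). Its relative *Rasgrp2* had the reverse order, at 2.44 and 288 CPM (-6.69, SE 0.54, adjusted p = 2.0e-10). *Marcks*, a classical PKC substrate at the membrane, was higher in microglia-like cells (2169 against 583 CPM, log2 fold change 1.93, edgeR adjusted p = 1.5e-06).

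Between B cell-like and T cell-like cells 7 of the 33 were higher, 3 lower and 23 did not pass. *Plcg2*, the phospholipase C of B cell receptor signaling, was at 62.3 CPM in B cell-like and 4.35 CPM in T cell-like cells (3.67, edgeR adjusted p = 3.1e-05). *Plcg1*, its counterpart below the T cell receptor, had 21.1 and 69.2 CPM (-1.94, edgeR adjusted p = 0.026). In the lymphoid against myeloid comparison 11 were higher and 6 lower, among the former *Rasgrp1*, a diacylglycerol-activated Ras exchange factor of lymphocytes (104 against 24.8 CPM, log2 fold change 3.40, edgeR adjusted p = 4.6e-08).

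In neutrophil-like against monocyte/macrophage-like cells 4 listed genes were higher and 5 lower. *Prkd2*, a protein kinase D that PKC activates, was at 34.5 and 4.95 CPM (2.56, edgeR adjusted p = 0.0059), and *Malt1*, a paracaspase of NF-kappaB signaling, at 68.0 and 221 CPM (-1.49, adjusted p = 0.0019). In choroid plexus-like cells 22 were lower and 2 higher, the latter both listed as partners of atypical PKC. These were *Wwc1* (137 against 0.47 CPM, edgeR adjusted p = 1.6e-11) and *Sqstm1* (136 against 86.9 CPM, adjusted p = 0.00027). The median log2 fold change of the 33 genes in that comparison was -3.03, against -0.35 over all genes tested, and in the other 4 comparisons it lay between -0.06 and 0.14. The share of the 33 genes called was 48.5% in microglia-like against monocyte/macrophage-like cells (43.9% of all genes tested), 51.5% in lymphoid against myeloid classes (44.8%), 30.3% in B cell-like against T cell-like cells (12.5%), 27.3% in neutrophil-like cells (26.4%) and 72.7% in choroid plexus-like cells (62.5%).

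The genes whose level across the 18 class and library sums resembled each member most were named by Pearson's r of log2(CPM + 10) over 6544 genes, as a description, since the sums share libraries and classes. *Prkca* was closest to *Inpp4b* (r = 0.94), *Rasal3* (0.89) and *Plcg1* (0.88). Among the genes closest to *Prkcb* were *Ptpn6* (0.95) and *Ncf4* (0.94). For *Prkce* these were *Plekha2*, *Angel2* and *Cd72* (0.87 to 0.94), and for *Prkch* *Fyn*, *Aebp2* and *Itgb1* (0.90 to 0.91). *Prkcq* was closest to *Fam189b* (0.91), *Lef1* (0.91) and *Abhd8* (0.89). *Lef1* had 13.4 to 16.3 CPM in choroid plexus-like and 81.6 to 167 CPM in T cell-like cells. *Prkcz* (*Crbn*, *Abhd8* and *4930453N24Rik*, 0.84 to 0.86) and *Prkci* (*Samd4b*, *Stk3* and *Ik*, 0.76 to 0.78) averaged under 20 CPM, where counting error is large.

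Niacin and vehicle were compared as values, because 1 vehicle library gives no spread between control pools and no test. Members with at least 20 UMIs in a class gave 19 pairs of gene and class, of which 8 differed at least 1.5-fold in the same direction in both niacin libraries, 3 higher and 5 lower. The background was 19.8% of genes in microglia-like, 32.1% in monocyte/macrophage-like, 44.7% in neutrophil-like, 25.5% in T cell-like, 45.1% in B cell-like and 36.8% in choroid plexus-like cells. Both niacin libraries share the vehicle library as denominator, so they are not independent of its counts.

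**Figure D4:**
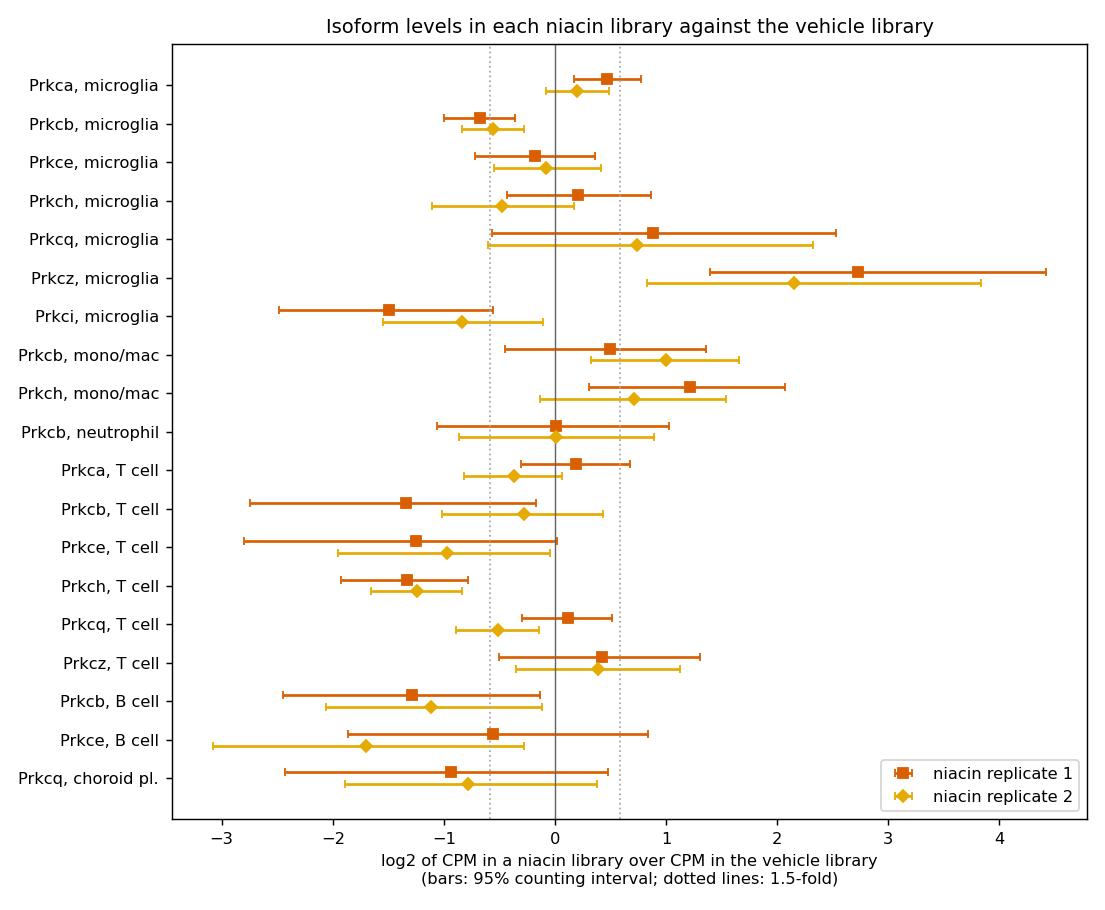
Log2 of the CPM of a niacin library over the CPM of the vehicle library (x axis) for 19 pairs of isoform and class (y axis), with 95% counting intervals. Dotted lines mark 1.5-fold. *Prkcz* in microglia-like cells lies at 2.73 and 2.15, and *Prkch* in T cell-like cells at -1.33 and -1.24.

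In microglia-like cells *Prkcz* was at 3.03 CPM in the vehicle library (5 UMIs) and at 20.1 and 13.4 CPM in the niacin libraries (45 and 51 UMIs). The log2 ratios were 2.73 (95% counting interval 1.40 to 4.42) and 2.15 (0.83 to 3.83). The ratio for both niacin libraries together was 2.47, and 1.35 after thinning to 2000 UMIs. *Prkci* had the opposite direction, at 18.8, 6.68 and 10.5 CPM, with log2 ratios of -1.49 (-2.49 to -0.56) and -0.84 (-1.55 to -0.11). *Prkcq* also passed 1.5-fold, from 6, 15 and 23 UMIs, with intervals that include 0. Thus 3 of 7 members passed in this class, where 19.8% of all genes compared did. *Prkcb*, at 109, 68.2 and 74.0 CPM, was lower by 0.68 and 0.56, and *Prkca*, *Prkce* and *Prkch* stayed under 1.5-fold in both libraries.

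Cluster 10 held 104 of the 356 microglia-like cells in the vehicle library but 5 and 17 cells in the niacin libraries. The makeup of the class thus differed between the vehicle and niacin libraries, where treatment and pool cannot be told apart. Within cluster 9, which held the most microglia-like cells in each library, *Prkcz* was at 3.18, 18.4 and 13.3 CPM, from 3, 29 and 42 UMIs. *Prkci* was at 18.0, 8.25 and 10.2 CPM there, and *Prkcb* at 92.2, 71.7 and 69.2 CPM. The directions in cluster 9 were those of the whole class. T cell markers summed to 33.3, 36.1 and 20.8 CPM in microglia-like cells, and NK cell markers to 72.7, 8.02 and 1.84 CPM. Higher in both niacin libraries, as *Prkcz* was, were the sums of the choroid plexus markers (1.82, 8.02 and 7.37 CPM) and of the neutrophil markers (81.2, 271 and 136 CPM). The median mitochondrial share of the analyzed cells was 5.85%, 3.28% and 3.68%, and the median depth 2482.5, 2958 and 4231 UMIs. The part of these differences in the isoform values was not tested.

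In T cell-like cells *Prkch* was at 233 CPM in the vehicle library (186 UMIs) and at 92.3 and 98.4 CPM in the niacin libraries (32 and 70 UMIs). The log2 ratios were -1.33 (95% counting interval -1.92 to -0.79) and -1.24 (-1.66 to -0.84). After thinning to 2000 UMIs the ratio for both niacin libraries together was -0.70. The thinned levels were 207, 108 and 147 CPM, from 50, 11 and 30 UMIs, so niacin replicate 2 no longer passed 1.5-fold. NK cell markers in the same cells summed to 914, 303 and 235 CPM, *Cd8b1* was at 128, 609 and 636 CPM and *Cd4* at 190.3, 124 and 132 CPM. *Ttr*, a transcript of choroid plexus cells, was at 37.6, 317 and 128 CPM in them, and the 8 choroid plexus markers summed to 1.25, 8.66 and 2.81 CPM. The part of these transcripts in the *Prkch* values was not tested. T cell-like cells fell into clusters 2 and 7. In cluster 2, led by the cytotoxic genes *Ccl5* and *Gzma*, *Prkch* was at 263, 133 and 127 CPM. In cluster 7, led by *Trbc2* and *Icos*, it was at 208, 51.9 and 76.6 CPM, so that the vehicle library was the highest in both. Cluster 2 also held NK cell-like cells, and its 10 leading genes include 1 NK cell marker and none of the 8 T cell markers.

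**Figure D5:**
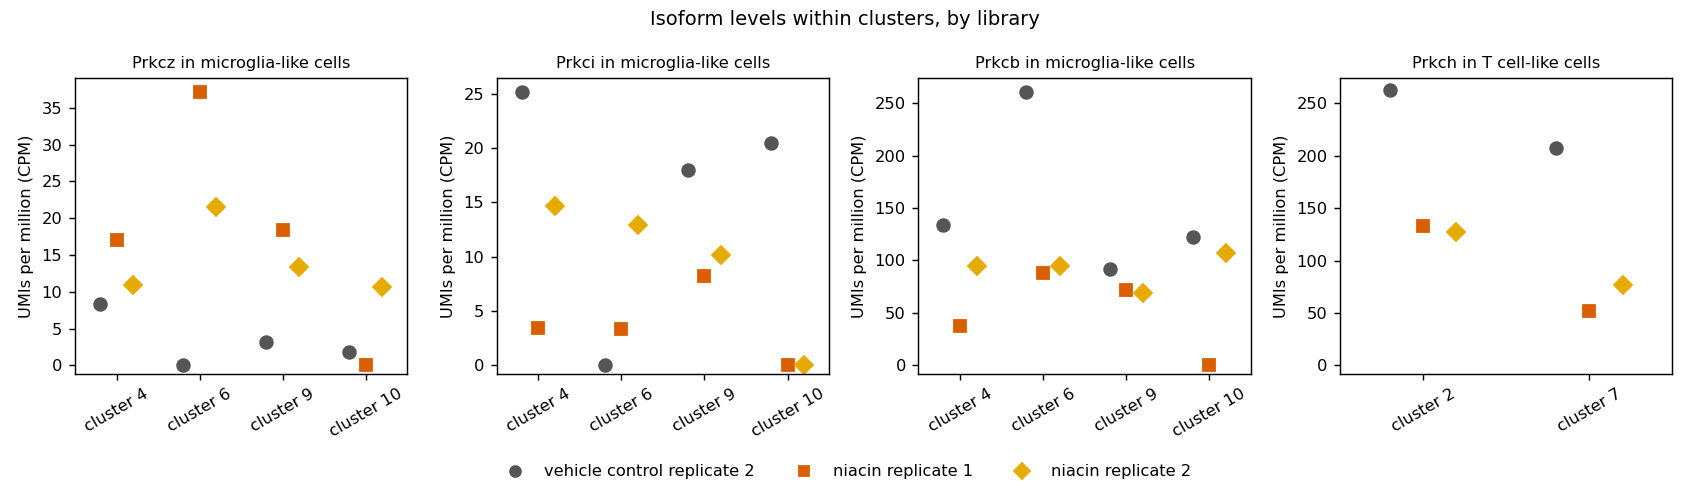
CPM (y axis) of *Prkcz*, *Prkci* and *Prkcb* in microglia-like cells and of *Prkch* in T cell-like cells, by graph cluster (x axis) and library (points). The vehicle library is lowest for *Prkcz* in clusters 4, 6 and 9 and highest for *Prkch* in clusters 2 and 7. The vehicle values of *Prkcz* in clusters 4, 6 and 9 rest on 1, 0 and 3 UMIs, and cluster 10 with niacin on 5 and 17 cells.

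*Prkce* in T cell-like cells passed 1.5-fold as well, from 33, 6 and 15 UMIs, with log2 ratios of -1.25 (95% counting interval -2.80 to 0.02) and -0.97 (-1.96 to -0.05). *Prkcq*, the theta isoform, did not, at 203, 219 and 142 CPM, and *Prkca*, *Prkcb* and *Prkcz* did not either. In monocyte/macrophage-like cells *Prkch* was higher with niacin, at log2 ratios of 1.21 (95% counting interval 0.31 to 2.07) and 0.71 (-0.14 to 1.54), and *Prkcb* was at 0.49 and 1.00. In neutrophil-like cells *Prkcb*, the sole member with 20 UMIs, was at 0.0049 and 0.01, where the median log2 ratio over all genes of that class was -0.39 and -0.75. In the other 5 classes these medians lay between -0.24 and 0.06. *Prkcb* in B cell-like cells was lower (-1.29 and -1.12), from 15, 14 and 30 UMIs. With all barcodes kept the mean ratio was 0.0057 in place of -1.20. *Prkcq* in choroid plexus-like cells was lower by 0.94 and 0.78, with intervals that include 0.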

How the data were processed

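UMI counts of 3 libraries were analyzed as deposited. The authors made these counts with Chromium 3′ kits and Cell Ranger 3.1 (STAR, mm10), and the files hold barcodes called as cells, without normalization. Barcodes with fewer than 200 genes or over 20% mitochondrial UMIs, or present in more than 1 library, were removed. Classes came from 14 lists of 8 markers (111 of 112 markers had a row). No doublet caller was run here. Cells without a margin of 2 markers stayed unclassified, and a stricter gate was an alternative. Clusters (scanpy 1.11.5, 30 principal components, resolution 0.5) were found without the PKC genes. Sums per class and library were tested with edgeR 4.0.16 in R 4.3.3 (TMM, filterByExpr, library as a block, Benjamini-Hochberg, threshold 0.05), and the script was tested on simulated data. DESeq2 1.42.0 was an alternative. Classes of a library come from the same pool of mice, and their deviations from class means correlated at 0.03 to 0.57, against -0.48 to 0.19 between libraries. The class means come from the same 3 libraries, so positive values within a library pull those between libraries below 0. The latter are not an independent comparison. NK cell-like against T cell-like cells was planned and not run, with 3 NK cell-like cells in 1 library.

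Intervals are exact at 95% (Poisson or binomial) and describe counting error alone. A count of 0 was bounded by 3 counts. In the text are all 7 members, listed genes past an adjusted p of 0.05, a log2 fold change of 1 and 10 CPM (up to 5 per direction), and the 3 most similar genes, apart from items not reported here. Contrast values are given for members with at least 20 UMIs, a limit set after the data were seen. The members follow from gene symbols alone, but this gene family, the markers, lists and tests were chosen with earlier results of these data known. Promoters came from RefSeq (GRCm38.p6).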

Additional observations from a re-analysis of the deposited data

Results flagged for a closer look

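In 8 combinations of a member and a pair of classes, both niacin libraries lay above the vehicle library in the first class and below it in the second. The difference between the classes was not tested. For *Prkch*, the log2 ratio of niacin over vehicle was 0.98 in monocyte/macrophage-like and -1.29 in T cell-like cells, a difference of 2.27. For *Prkcq*, it was 0.81 in microglia-like and -0.86 in choroid plexus-like cells, a difference of 1.67, from 44 and 40 UMIs. *Prkcb* was at 0.77 in monocyte/macrophage-like cells, and exceeded microglia-like cells by 1.38, T cell-like cells by 1.49 and B cell-like cells by 1.97. In neutrophil-like cells *Prkcb* was at 0.01, which exceeded the same classes by 0.63, 0.73 and 1.21, where the median over all genes was -0.39 and -0.75 in the niacin libraries. These comparisons share 1 vehicle library. With all barcodes kept, the mean *Prkcb* ratio in B cell-like cells was no longer negative, so the differences from that class depend on the barcodes kept. Groups hold at most 3 libraries, so single libraries were not examined as outliers.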

How the results depend on the processing

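Members called per comparison changed by more than 1.5 times for 2 comparisons. In neutrophil-like against monocyte/macrophage-like cells 1 member was called, against 2 when all barcodes or the deepest shared barcodes were kept and 0 in the fit of these classes alone, where *Prkch* did not pass the filter. Leaving out 1 library gave 0 to 1 there and 1 to 3 in lymphoid against myeloid classes, where 2 were called. *Prkcq* in microglia-like against monocyte/macrophage-like cells, not called, turned to -0.14 when 2 markers sufficed. Without 1 library each, *Prkcb* in that comparison ran from -0.86 to 0.0197 (niacin replicate 2 left out) and *Prkce* in neutrophil-like against monocyte/macrophage-like cells from -1.35 (vehicle left out) to 1.98 (niacin replicate 2 left out). With all barcodes kept, *Prkcb* in B cell-like cells turned from -1.20 to 0.0057 with niacin, and the cause was not tested. *Prkch* in T cell-like cells moved to -0.70 when cells were thinned to 2000 UMIs, and *Prkcz* in microglia-like cells to 1.35. The count of 8 pairs past 1.5-fold ran from 6 to 10. Without the replicate block the counts of members called were 2, 2, 5, 1 and 4, as with it, so the pairing by library changed no such count. Size factors of DESeq2 in place of TMM moved the median of all genes from -0.21 to -0.07 in neutrophil-like against monocyte/macrophage-like cells and from -0.35 to -0.20 in choroid plexus-like cells, and no member changed direction. A limit of 10% mitochondrial UMIs left too few B cell-like cells for the comparisons that include them. Counts of all genes called moved by over 1.5 times in some settings. With all barcodes kept they were 4555 (2653 in the main analysis) for microglia-like and 2910 (1598) for neutrophil-like against monocyte/macrophage-like, 1283 (754) for B cell-like against T cell-like and 5988 (3783) for choroid plexus-like cells, and with the deepest copies 4375, 2703, 1222 and 5840. Without niacin replicate 2 they were 1633, 731 and 407 in the first 3 of these and 1797 (2712) for lymphoid against myeloid classes. The neutrophil comparison also gave 929 without niacin replicate 1 and 777 in its own fit, and the choroid plexus one 5939 without the filter. Depth limits *Prkcz* and *Prkci* most, with 238 and 138 UMIs in all analyzed cells.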
